A study of Oryctolagus cuniculus with 12 samples.

Results

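TTC9, MPP7, SLC25A24, TSTD2, CMC2, KCNAB1, SELENBP1, CLIC5 and CCDC69 are 9 of the 29076 genes listed for rabbit cornea, chosen by their measured expression, in that the 3 blue_light libraries did not overlap the 3 control libraries. The first 5 were higher under blue light and the other 4 lower. Their blue_light and control values therefore chose them and are given below as a description, with no test. GL against RL is tested, since its log2 differences use none of the libraries that chose the genes, although its errors and p-values share an estimate of spread over all 12 libraries, those included. All 9 had enough counts to pass the filter on low counts that left 18171 genes.

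RNA was sequenced from corneas of rabbits 6 months old on a normal diet, in 3 libraries each for groups labelled blue light (blue_light), GL, RL and Ctrl (control). The label of 6 weeks of light stands on all 12 libraries, controls included, and the labels spell out neither GL nor RL and give no wavelength or strain. Whether each library is its own animal is not stated, and p-values therefore reflect library-to-library spread that may be technical.

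The 9 genes belong to no single pathway. Loose groups can be drawn by role: proteins that hold junctions, channels or the cytoskeleton together, and proteins of mitochondria and sulfur chemistry. Epithelial cells of the cornea use polarity scaffolds to place the tight junctions that seal the ocular surface, ion channels and their partners to set membrane potential, and mitochondria to supply the ion pumps that keep the tissue clear.

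Total counts per library were 40.9 to 58.8 M (mega) in blue_light, 61.6 to 64.7 M in GL, 45.9 to 62.4 M in RL and 44.4 to 56.9 M in control. The summed level of 9 corneal epithelial markers was 33000 to 42700 CPM in blue_light, 48900 to 49100 CPM in GL, 38800 to 53800 CPM in RL and 32900 to 42300 CPM in control, so the labelled tissue was present throughout. CPM here is the count scaled to library size (TMM-adjusted). Libraries also differed in ways that followed the groups only in part. All blue_light libraries, RL 1 and control 1 held 2389 to 2563 genes at counts of 1 to 20, against 767 to 1461 in the other libraries. The former are called the library set below. They take in every blue_light library and no GL library, so their part cannot be fully told apart from that of blue light. The summed level of 15 retinal markers was 192 CPM in blue_light 1, 714 CPM in GL 3 and 146 CPM in control 2, and 13 to 48.2 CPM elsewhere. The summed level of 12 lens markers was 13700, 1620 and 2240 CPM in blue_light, 555 to 3100 CPM in GL, 371 to 2930 CPM in RL and 4900 to 7760 CPM in control. Of 11 marker lists for corneal and other cell types, 9 overlapped between blue_light and control. The adipocyte list was lower in blue_light (2.63 to 4.57 CPM over 4 genes found) than in control (7.03 to 82.5 CPM), and so was the skeletal muscle list (0.433 to 1.13 against 1.18 to 1.70 CPM over 6 genes). In each of these libraries 3 to 5 of those 6 muscle genes were at 0. ACTA1 overlapped (1.02, 0 and 0.135 CPM in blue_light, 1.07, 0.403 and 1.7 CPM in control). The muscle sum is therefore not read as a difference in muscle. The adipocyte sum was mostly LPL in control, at 5.46, 80.9 and 41.7 CPM, while CIDEC and ADIPOQ overlapped between blue_light and control and FABP4 was at 0 in all 12 libraries. Between GL and control, the epithelial and lens sums given above did not overlap. Nor did keratocyte markers (61100 to 66100 CPM in GL, 46400 to 49000 CPM in control) or blood vessel markers (97.4 to 127 and 79.8 to 96.4 CPM). Of the keratocyte genes, COL1A1 (13400, 16300 and 16200 CPM in GL, 4500, 8980 and 9570 CPM in control), COL1A2 and COL5A1 did not overlap. KERA, LUM, DCN and ANGPTL7 overlapped. The blood vessel sum was mostly KDR (76.2, 113 and 95.5 CPM in GL, 69.8, 68.6 and 79 CPM in control), which overlapped. The RL blood vessel sum (113 to 142 CPM) lay above every control. The RL adipocyte (1.87 to 4.72 CPM) and lens sums lay below every control. Schwann and nerve markers stood at 57.9 to 61 CPM in GL, below 72.2 to 155 CPM in control. The part of any of these differences in the results below was not tested except where a value is given.

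Among all genes tested, every blue_light library lay above every control for 4.91% and below every control for 4.09%, and the 9 genes are drawn from these. The narrowest gap among them was that of TSTD2, 0.28 on the log2 CPM scale, and the widest that of CLIC5, 1.74. Just outside the rule lay MLF2, with a gap of −0.0002 on the same scale.

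Levels per length place SELENBP1 far above the rest, at a mean of 103 FPKM over the 12 libraries (96.6th percentile of genes tested). Next came TSTD2 at 15.8, SLC25A24 at 14.8, CCDC69 at 14.2, KCNAB1 at 12.1, MPP7 at 11.9 and TTC9 at 11.6 FPKM. CMC2 had 2.73 FPKM and CLIC5 0.729 FPKM (23.8th percentile). CLIC5 is the gene counted most thinly: its lowest deposited count was 53, whereas none of the other 8 genes fell below 296 in any library.

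**Figure D1:**
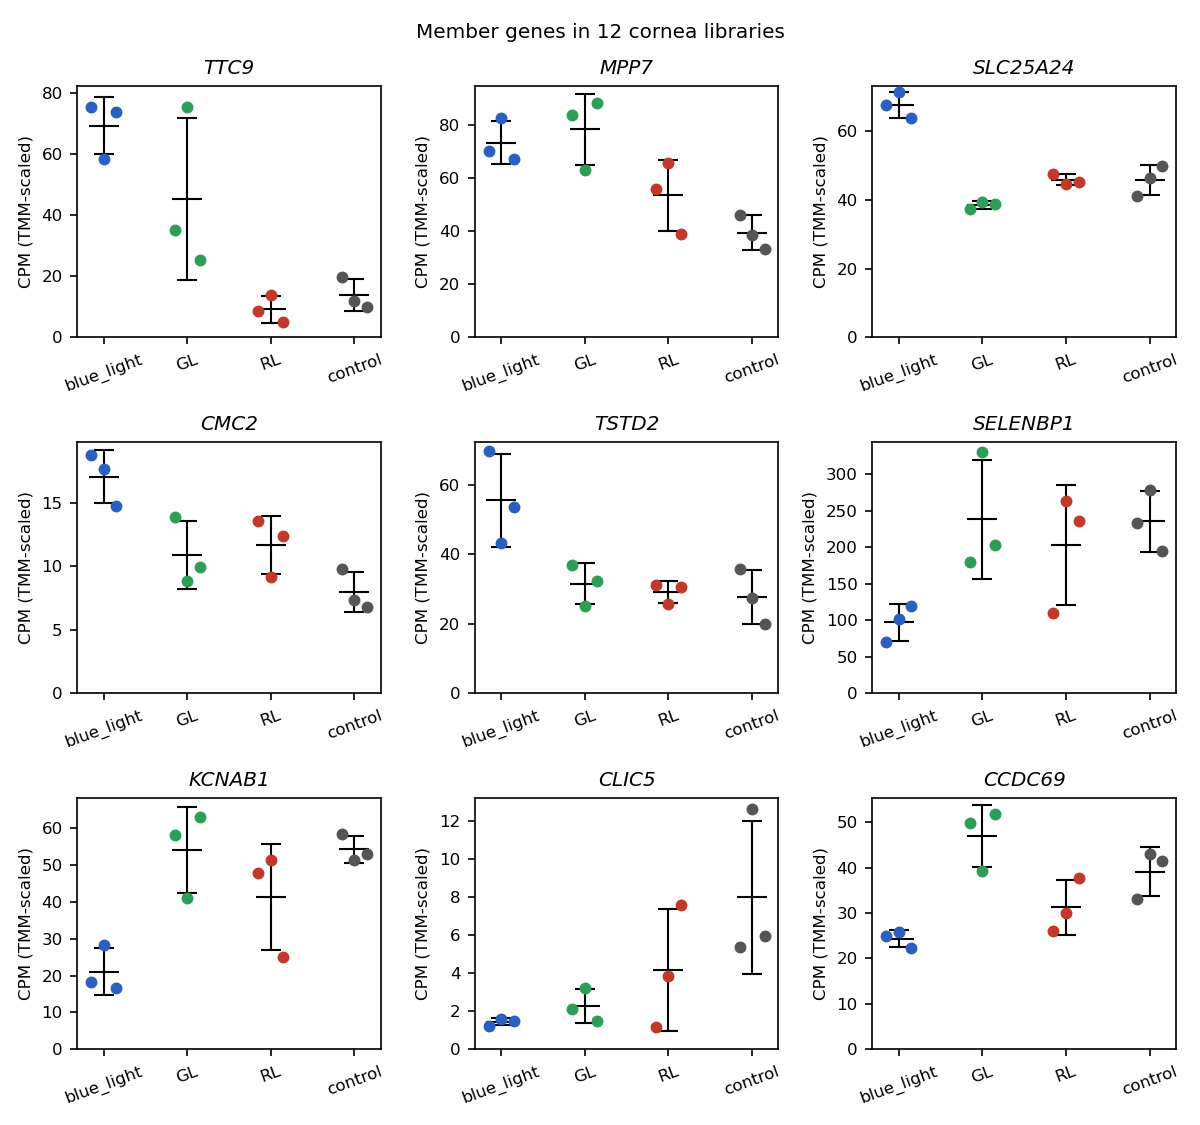
TMM-scaled CPM (vertical axis, from 0) of the 9 genes in 12 cornea libraries (points, replicates 1 to 3 from left to right), with group mean and SD (bars, n = 3). TTC9 reached 75.5 CPM in GL 2, inside the blue_light range, while SLC25A24 in GL stayed between 37.2 and 39.4 CPM, below every control.

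TTC9 (gene identifier 100341989) encodes a protein built on tetratricopeptide repeats, a fold through which proteins bind one another. The deposited table places it on the minus strand of an unplaced scaffold, at bases 525595 to 554253. It stood at 75.6, 58.6 and 73.8 CPM in blue_light, at 35.1, 75.5 and 25.2 CPM in GL, at 8.67, 13.8 and 4.91 CPM in RL, and at 19.8, 12.0 and 9.78 CPM in control. Blue_light was uniformly high, GL was spread widely between blue_light and control, and RL overlapped control. The fitted blue_light level was 5.01 times that of control. In GL against RL, TTC9 had a log2 difference of 2.31 ± 0.45 (SE; 95% interval 1.34 to 3.28), all 3 GL libraries lay above all 3 RL libraries, and the edgeR adjusted p was 0.132. It ranked 26th of 18171 genes by p. DESeq2 called it (log2 2.31, adjusted p = 4.63e-05), and over the other 23 alternatives the adjusted p ran from 0.0658 upward to 0.412. Without GL 2 the log2 difference was 1.72.

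MPP7 (100357851) encodes a membrane-associated guanylate kinase, a scaffold that in human epithelial cells joins DLG1 and LIN7 and promotes tight junction formation. It lies on chromosome 16, minus strand, at 7170850 to 7341502, in OryCun2.0 numbering. Its levels were 70.4, 82.7 and 67.2 CPM in blue_light, 83.7, 63.3 and 88.5 CPM in GL, 55.9, 65.6 and 38.9 CPM in RL, and 46.3, 38.8 and 33.4 CPM in control. GL overlapped blue_light, and RL lay between and overlapped control. The fitted blue_light level was 1.86 times the control level. GL exceeded RL by a log2 of 0.55 ± 0.22 (interval 0.086 to 1.02), with an edgeR adjusted p of 0.548 and GL 2 inside the RL range.

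The relatives and binding partners of MPP7 did not pass the test. Of 30 scaffold and polarity names listed, 23 were tested, and in blue_light minus control edgeR called 0 in either direction, with 0 at an unadjusted p below 0.05. Their median log2 was 0.06, beside 0.01 over all genes tested. Of the nearest paralogs, in blue_light and control, MPP1 stood at 14.6 ± 1.63 and 14.6 ± 1.05 CPM, MPP2 at 14 ± 2.27 and 15.1 ± 4.54, MPP5 at 87.7 ± 15 and 69.7 ± 19.5, and MPP6 at 8.83 ± 1.97 and 8.49 ± 3.17 (SD, n = 3 each). MPP3 (0.531 ± 0.142 and 0.273 ± 0.349 CPM) and MPP4 (2.44 ± 2.47 and 1.01 ± 1.27 CPM) varied widely between libraries. Smallest in p were LIN7A, a partner of MPP7, with a log2 of 1.08 ± 0.77 at 2.73 ± 0.534 against 1.29 ± 0.422 CPM, and CASK, with −0.23 ± 0.17 at 42.8 ± 8.48 against 50.3 ± 0.31 CPM (edgeR adjusted p = 1 for both).
Among 10 TTC9 relatives and immunophilins with such repeats, 7 were tested and edgeR called 0, with 0 at an unadjusted p below 0.05. TTC9C stood at 20.3 ± 1.12 CPM in blue_light and 21.9 ± 4.91 CPM in control, while TTC9B was not among the genes tested. The smallest p belonged to the cyclophilin PPID (log2 0.18 ± 0.15) and to TTC4 (−0.14 ± 0.18).

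SLC25A24 (100009567) encodes SCaMC-1, a calcium-regulated carrier that exchanges ATP-Mg for phosphate across the inner mitochondrial membrane. It lies on the plus strand of chromosome 13 at 55867485 to 55933212. It had 67.8, 71.5 and 63.9 CPM in blue_light, 37.2, 39.4 and 38.8 CPM in GL, 47.7, 44.6 and 45.2 CPM in RL, and 41.1, 46.3 and 50.0 CPM in control. Here the light groups stood on both sides of control: every blue_light library was above, every GL library below, and RL inside the control range. The spread within groups was the smallest of the 9 genes in GL and RL, with an SD of log2 CPM of 0.04 in GL and 0.05 in RL against medians of 0.29 and 0.46 over all genes. The fitted blue_light level was 1.48 times that of control. In GL against RL every GL library was below every RL library, with a log2 of −0.25 ± 0.14 (interval −0.56 to 0.0535; edgeR adjusted p = 0.608).

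CMC2 (100339139) encodes a small mitochondrial protein with paired CX9C motifs that takes part in assembling cytochrome c oxidase, as shown in yeast and human cells. It lies on chromosome 5, minus strand, at 35421618 to 35462854. CMC2 stood at 18.8, 17.7 and 14.8 CPM in blue_light, 13.9, 8.87 and 9.96 CPM in GL, 13.6, 9.17 and 12.4 CPM in RL, and 9.80, 7.37 and 6.78 CPM in control. Blue_light lay above every other library, and GL and RL reached into the control range only with 1 library each, GL 2 and RL 2. The fitted blue_light level was 2.14 times the control level. GL and RL were not distinguished (log2 −0.10 ± 0.26, interval −0.66 to 0.46, edgeR adjusted p = 0.943).

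TSTD2 (100348871) encodes a protein with a rhodanese-like domain, the fold of sulfur transferases, whose own function is little known. It lies on chromosome 1, plus strand, at 15436650 to 15457290. Its levels were 69.9, 43.3 and 53.5 CPM in blue_light, 37.0, 25.1 and 32.4 CPM in GL, 31.3, 25.6 and 30.6 CPM in RL, and 35.7, 27.3 and 20.04 CPM in control. Blue_light 2 came closest to the rest, and GL, RL and control overlapped fully. Blue_light was fitted at 2.01 times control. In GL against RL the log2 was 0.11 ± 0.245 (interval −0.42 to 0.64, edgeR adjusted p = 0.927).

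SELENBP1 (100354955) encodes a selenium-binding protein, not itself a selenoprotein, that in humans oxidizes methanethiol to hydrogen sulfide, hydrogen peroxide and formaldehyde. It lies on the plus strand of chromosome 13 at 40811428 to 40820733, the same chromosome as SLC25A24. It stood at 69.9, 102 and 119.7 CPM in blue_light, at 179.5, 331 and 203 CPM in GL, at 110, 263 and 236 CPM in RL, and at 233, 278 and 194 CPM in control. RL 1 lay inside the blue_light range, and all other GL, RL and control libraries were above it. The fitted blue_light level was 0.413 times that of control. GL against RL gave a log2 of 0.23 ± 0.33 (interval −0.48 to 0.93, edgeR adjusted p = 0.869), and −0.0706 without RL 1.

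Other genes of these pathways showed no called change. Of 16 carriers and calcium uniporter genes listed with SLC25A24, 12 were tested, of 27 cytochrome c oxidase assembly and CX9C genes 9, of 15 rhodanese and sulfide genes 13, and of 28 selenoprotein and selenium genes 14. In blue_light minus control, edgeR called 0 in each list. At an unadjusted p below 0.05 there were 0, 0, 1 and 1. Median log2 values in that order were −0.08, −0.23, −0.03 and −0.09, beside 0.01 over all genes tested.
SLC25A25, a close paralog of SLC25A24, stood at 19.7 ± 4.25 CPM in blue_light and 20.3 ± 6.82 CPM in control. The peroxisomal carrier SLC25A17 had the smallest p of its list (69.5 ± 1.34 against 52.9 ± 23.3 CPM, log2 0.395 ± 0.26), followed by MICU2, a regulator of the calcium uniporter (58.9 ± 7.82 against 49.7 ± 7.21 CPM).
CMC1, another assembly factor of cytochrome c oxidase, had the opposite sign to CMC2, with 10.9 ± 2.03 CPM in blue_light and 14.1 ± 3.62 CPM in control, and 8 of the 9 genes tested in that list had a log2 below 0. CMC4 was the exception, at 9.74 ± 2.68 against 7.45 ± 1.28 CPM. CHCHD2 had the smallest p (119 ± 29.1 against 174 ± 55.9 CPM, log2 −0.55 ± 0.33, edgeR adjusted p = 1).
TST, the mitochondrial rhodanese, had 11.2 ± 2.44 CPM in blue_light and 18.7 ± 3.18 CPM in control, with a log2 of −0.735 ± 0.26 and an unadjusted p of 0.0147 (edgeR adjusted p = 1). ETHE1, a persulfide dioxygenase, had 10.4 ± 2.83 and 14.8 ± 3.35 CPM. TSTD1 (33.3 ± 2.43 and 40.6 ± 5.58 CPM), TSTD3 (9.48 ± 1.57 and 9.71 ± 1.71) and MPST (22.4 ± 6.12 and 23.4 ± 5.03), the other members of the rhodanese group, had log2 differences of −0.29 ± 0.21, −0.03 ± 0.26 and −0.06 ± 0.265.
Among selenium genes, the mitochondrial thioredoxin reductase TXNRD2 had 18.5 ± 2.87 CPM in blue_light and 26.8 ± 1.88 CPM in control (log2 −0.53 ± 0.21, unadjusted p = 0.0269, edgeR adjusted p = 1), and the deiodinase DIO2 12.7 ± 6.59 and 7.41 ± 0.785 CPM.

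KCNAB1 (100328569) encodes a beta subunit of Kv1 potassium channels, an aldo-keto reductase fold that docks on the channel and speeds its inactivation. It lies on chromosome 14, plus strand, at 50418180 to 50875996. It stood at 18.2, 28.3 and 16.5 CPM in blue_light, 58.3, 41.0 and 63.1 CPM in GL, 47.9, 51.3 and 25.0 CPM in RL, and 58.5, 51.4 and 53.2 CPM in control. Controls were tightly grouped, GL surrounded them, and RL lay below every control, RL 2 by a narrow margin and RL 3 as far as the blue_light range. Blue_light was fitted at 0.387 times control. In GL against RL the log2 was 0.39 ± 0.28 (interval −0.225 to 1, edgeR adjusted p = 0.7).

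CLIC5 (100342637) encodes a chloride intracellular channel protein that sits with ezrin-type proteins at actin-based projections, as known from stereocilia of the mouse inner ear. It lies on chromosome 12, minus strand, at 35168467 to 35275615. Its levels were 1.22, 1.58 and 1.499 CPM in blue_light, 2.12, 3.23 and 1.48 CPM in GL, 1.15, 3.84 and 7.56 CPM in RL, and 5.36, 12.6 and 5.97 CPM in control. Blue_light and GL were both below every control and overlapped each other, and RL spanned nearly the whole range, with RL 1 the lowest of all libraries. The fitted blue_light level was 0.18 times that of control. This size moved most with the processing: the log2 was −2.48, but −1.48 with the library set as a covariate, −1.88 without the 3 libraries richest in retinal transcripts and −0.94 by limma on log2(FPKM + 1), a scale that understates the change of low genes. GL against RL gave −0.88 ± 0.59 (interval −2.16 to 0.395, edgeR adjusted p = 0.662). Without RL 3 that log2 was −0.135 and without RL 1 it was −1.32. In bulk tissue, fewer cells of a type and less RNA per cell cannot be told apart.

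CCDC69 (100343548) encodes a coiled-coil protein that binds microtubules and, in human cells, helps set up the central spindle of dividing cells. It lies on chromosome 3, minus strand, at 32750283 to 32788676. It had 25.0, 25.8 and 22.3 CPM in blue_light, 49.9, 39.2 and 51.8 CPM in GL, 25.9, 29.9 and 37.8 CPM in RL, and 33.1, 42.9 and 41.4 CPM in control. GL overlapped control at its upper end, and RL reached from just above blue_light into the control range. Blue_light was fitted at 0.622 times control. All GL libraries lay above all RL libraries, with a log2 of 0.59 ± 0.19 (interval 0.17 to 1.01, edgeR adjusted p = 0.5).

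Partners of these last genes were likewise without a call. Of 10 Kv1 alpha and beta subunit names 6 were tested, of 14 CLIC, ezrin-radixin-moesin and partner genes 10, and of 14 central spindle genes all 14, and edgeR called 0 in blue_light minus control in each. At an unadjusted p below 0.05 there was 1 in each list. Their median log2 values were −0.60, 0.11 and 0.55, beside 0.01 over all genes tested. The Kv1 median takes in rare genes, so it is not read as a shift of the family. These are KCNA4, KCNA5 (0.714 CPM in blue_light, 1.1 CPM in control) and KCNA7 (0.0674 and 0.158 CPM).
KCNAB2 (4.39 ± 1.47 CPM in blue_light, 5.06 ± 1.65 CPM in control) and KCNAB3 (2.72 ± 1.07 and 2.27 ± 0.613 CPM), the other beta subunits, had log2 differences of −0.20 ± 0.38 and 0.26 ± 0.91. The alpha subunit KCNA6 stood at 19.1 ± 10.6 and 28.7 ± 5.18 CPM (log2 −0.59 ± 0.34). KCNA4 was 0 in blue_light and 0.227 ± 0.199 CPM in control, at or near a detection floor of 0.194 to 0.265 CPM for these libraries, so no fold is given.
CLIC1 (117 ± 30.8 CPM in blue_light, 112 ± 1.52 CPM in control) and CLIC4 (88.5 ± 31.8 and 93.9 ± 13.9 CPM) had log2 differences of 0.06 ± 0.245 and −0.09 ± 0.25, and CLIC2 had 2.78 ± 2.2 and 2.54 ± 1.81 CPM. The ezrin partner podocalyxin, PODXL, averaged 1.47 ± 1.41 CPM in blue_light and 2.37 ± 1.8 CPM in GL. In RL it averaged 0.0939 ± 0.163 CPM and in control 0.0467 ± 0.0809 CPM. Both of these PODXL means lay below the detection floors, at 0.191 to 0.249 CPM in RL and 0.201 to 0.25 CPM in control. Its unadjusted p was 0.0272 in blue_light minus control and 0.0304 in GL minus RL (edgeR adjusted p = 1 and 0.566).
Of the 14 central spindle genes 13 had a log2 above 0 in blue_light minus control, opposite to CCDC69. ANLN, which organises the cleavage furrow, had 26.8 ± 7.04 CPM in blue_light and 16.1 ± 7.42 CPM in control (log2 0.74 ± 0.32, unadjusted p = 0.0364, edgeR adjusted p = 1), and the exchange factor ECT2 16.8 ± 4.81 and 8.55 ± 6.65 CPM. PRC1, the bundler of spindle microtubules, had 12.6 ± 4.64 and 12.6 ± 1.79 CPM, and the kinesin KIF4A had 21.7 ± 0.297 and 18.7 ± 5.57 CPM.

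**Figure D2:**
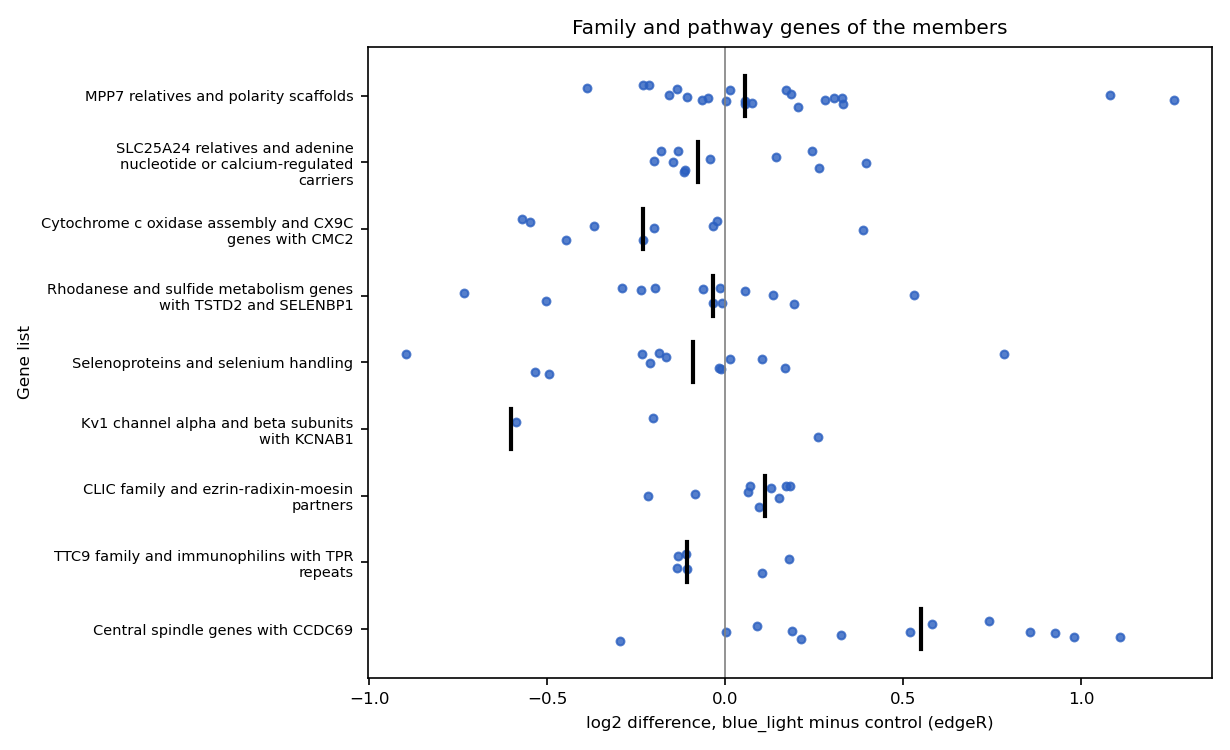
Fitted log2 difference, blue_light minus control (horizontal axis), for genes related to the 9 genes, 1 row for each of 9 lists. Points are the 99 genes with a mean of at least 1 CPM in both groups, and 9 rarer ones are not drawn. Black bars are medians over all tested genes of a list, from −0.60 (Kv1 subunits) to 0.55 (central spindle). The Kv1 median includes KCNA4, KCNA5 and KCNA7, which are not drawn.

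Over the 9 lists together, 108 genes were tested. In blue_light minus control edgeR, limma and DESeq2 each called 0 of them, 5 had an unadjusted edgeR p below 0.05 (3.26% of all genes did), and the background of calls among all genes was 0.0165%. In GL minus RL these tools also called 0, with 5 at an unadjusted p below 0.05. Among those were MICU3 (4.81 ± 0.694 CPM in GL, 8.70 ± 3.24 CPM in RL), CHCHD4 (17.1 ± 1.99 and 28.1 ± 2.08), TST (27.5 ± 2.22 and 17.1 ± 5.51) and PODXL. MICU3 and CHCHD4 were named after their values were seen. The summed adipocyte markers, at 6.90 to 13.3 CPM in GL and 1.87 to 4.72 CPM in RL, were the 1 list of 11 that did not overlap in this comparison. LPL made up most of that sum in GL (11.4, 4.71 and 13.1 CPM, against 1.75, 3.34 and 1.29 CPM in RL), and CIDEC and ADIPOQ overlapped.

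The test of GL against RL called none of the 9 genes by edgeR, while 13 of 18171 genes passed (0.0715%). With GL and RL fitted alone, so that the choosing libraries entered nowhere, edgeR called 3 of 16640 genes (0.018%) and again none of the 9, whose adjusted p ran from 0.412 for TTC9 to 0.969 for CMC2. In that fit TTC9 had a log2 of 2.32 ± 0.51 (interval 1.15 to 3.48), and 3 of the 9, TTC9, CCDC69 and MPP7, had an unadjusted p below 0.05, against 6.21% of all genes. The fit of all 12 libraries gave those 3 as well, against 8.6% of all genes. By position of the libraries, GL was above RL for TTC9 and CCDC69 and below it for SLC25A24, so 3 of 9 did not overlap, against 13.2% of all genes (GL above RL for 6.88% and below for 6.33%). The median absolute log2 difference was 0.39 over the 9 genes and 0.32 over all genes tested. Except for TTC9, the intervals reached at most 1.02 above 0 over all 12 libraries and 1.11 with GL and RL alone. Below 0 they reached furthest for CLIC5, to −2.16 over all 12 libraries and −2.48 with GL and RL alone.

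**Figure D3:**
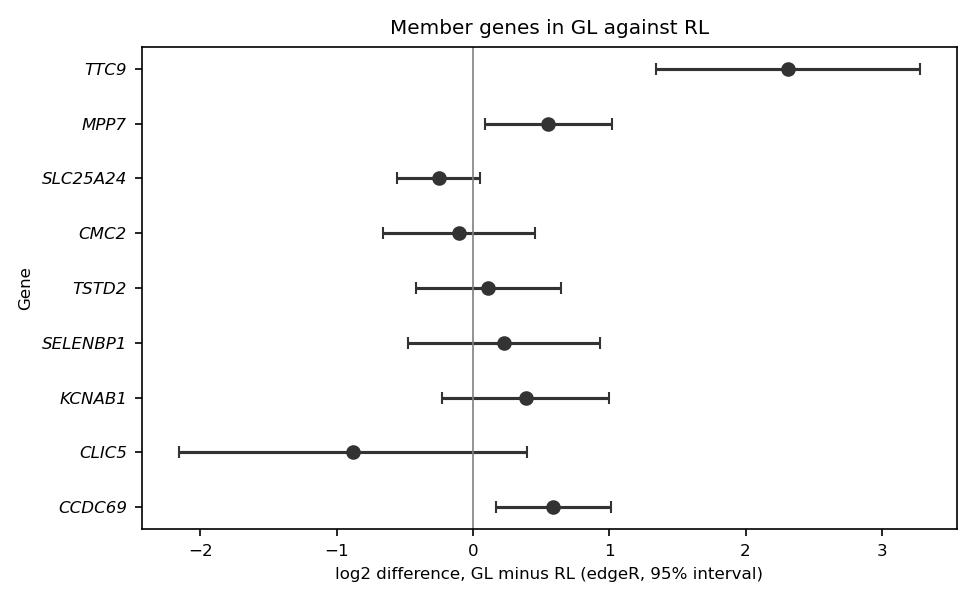
Log2 difference, GL minus RL, for the 9 genes, with the 95% interval of the edgeR fit (n = 3 libraries each). TTC9 stands apart at 2.31, MPP7 and CCDC69 have intervals above 0, and the other 6 intervals span 0.

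Set against control, GL and RL are described only, because the control libraries helped to choose the genes. Of the 5 genes higher in blue_light, GL lay above every control for TTC9 and MPP7 and below for SLC25A24, and RL overlapped control for all 5. Of the 4 lower genes, GL lay below every control for CLIC5 alone and RL for KCNAB1 alone. Over all genes tested, GL lay above every control for 9.21% and below for 9.25%, and RL above for 3.66% and below for 4.66%. Blue_light stood above every RL library for the 5 higher genes and above every GL library for SLC25A24, CMC2 and TSTD2. Blue_light stood below every GL library for SELENBP1, KCNAB1 and CCDC69, and below every RL library for CCDC69 alone. By FPKM in place of CPM, CCDC69 overlapped between blue_light and RL. Over all genes tested, blue_light lay above every GL library for 14.6% and below for 12.3%, and above every RL library for 5.87% and below for 3.13%.

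**Figure D4:**
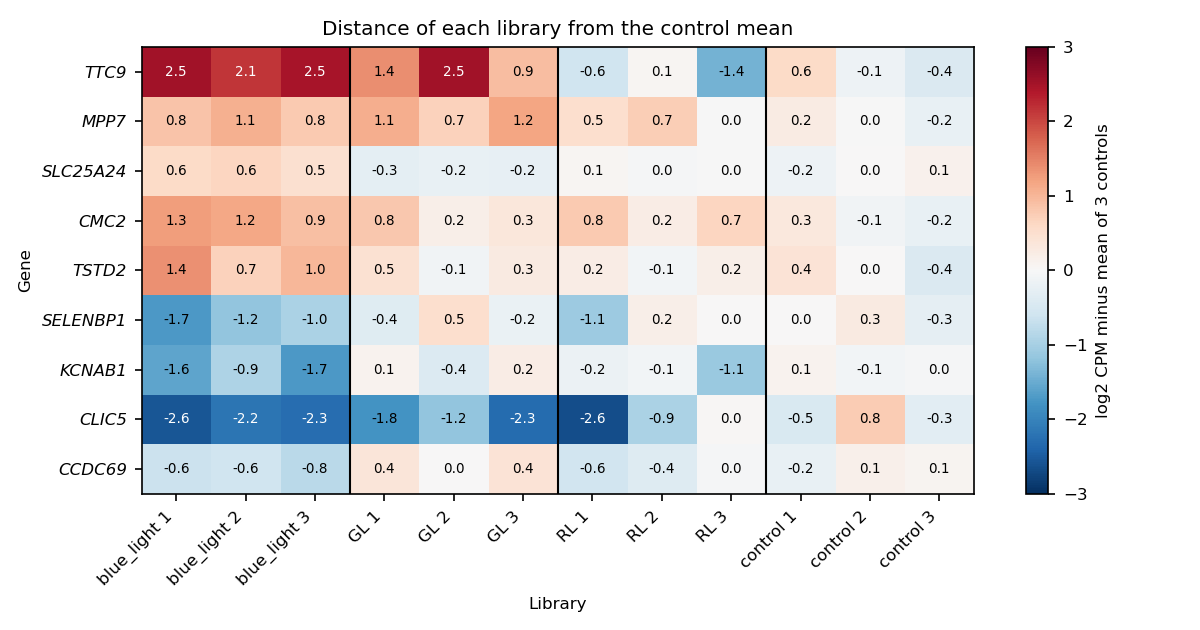
Log2 CPM of each gene (rows) in each of 12 libraries (columns) minus the mean of the 3 controls, with values printed in the cells. TTC9 is raised in GL as well as blue_light, CLIC5 is low in GL and in RL 1, and SLC25A24 is above the control mean in blue_light and below it in GL.

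Control 1 and RL 1, which shared with blue_light the larger number of genes at low counts, often stood nearest to it. Control 1 was the control closest to blue_light for 6 of the 9 genes (TTC9, MPP7, CMC2, TSTD2, CLIC5 and CCDC69), and RL 1 was the closest RL library for 6 (SLC25A24, CMC2, TSTD2, SELENBP1, CLIC5 and CCDC69). Over the 1635 genes tested whose blue_light and control libraries did not overlap, control 1 was the closest for 53.8% and RL 1 for 49.1%. With the library set as a covariate, the fitted log2, blue_light minus control, was 2.10 for TTC9, 0.75 for MPP7, 0.61 for SLC25A24, 0.85 for CMC2 and 0.775 for TSTD2. It was −0.92 for SELENBP1, −1.53 for KCNAB1, −1.48 for CLIC5 and −0.43 for CCDC69. All 9 kept their sign, which the choice of the genes favours. The set effect in that fit rests on control and RL alone, through control 1 and RL 1. Blue_light and GL each hold only 1 kind of library.

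Genes beside the 9 on the genome were without a call. The 2 nearest tested genes with a symbol on each side gave 36 neighbours, of which edgeR called 0 in blue_light minus control, with 0 at an unadjusted p below 0.05 and 0 called by limma or DESeq2. Their median absolute log2 was 0.191, beside 0.245 over all genes tested. The libraries failed to overlap for 1 of 36, the actin-capping tropomodulin gene TMOD1 beside TSTD2 (11.4 CPM in blue_light, 16.8 CPM in control), against 9% of all genes. SSR3 next to KCNAB1 stood at 267 and 266 CPM, MED6 next to TTC9 at 25.1 and 24.9 CPM, and PSMB4 next to SELENBP1 at 83.1 and 94.6 CPM. Among those further from 0 were ENPP4 next to CLIC5 (9.57 and 5.31 CPM, log2 0.85 ± 0.41), with the opposite sign to CLIC5, and FAM102B next to SLC25A24. FAM102B stood at 17.1 and 12 CPM (log2 0.51 ± 0.27), with the same sign as SLC25A24. Of the other neighbours of SLC25A24, HENMT1 and VAV3 had that sign, and NTNG1 the opposite sign (3.78 and 6.22 CPM, log2 −0.715 ± 0.67). Nearest is not always near: PRKCQ and SFMBT2 lie 3550 and 4360 kb from MPP7, midpoint to midpoint.

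**Figure D5:**
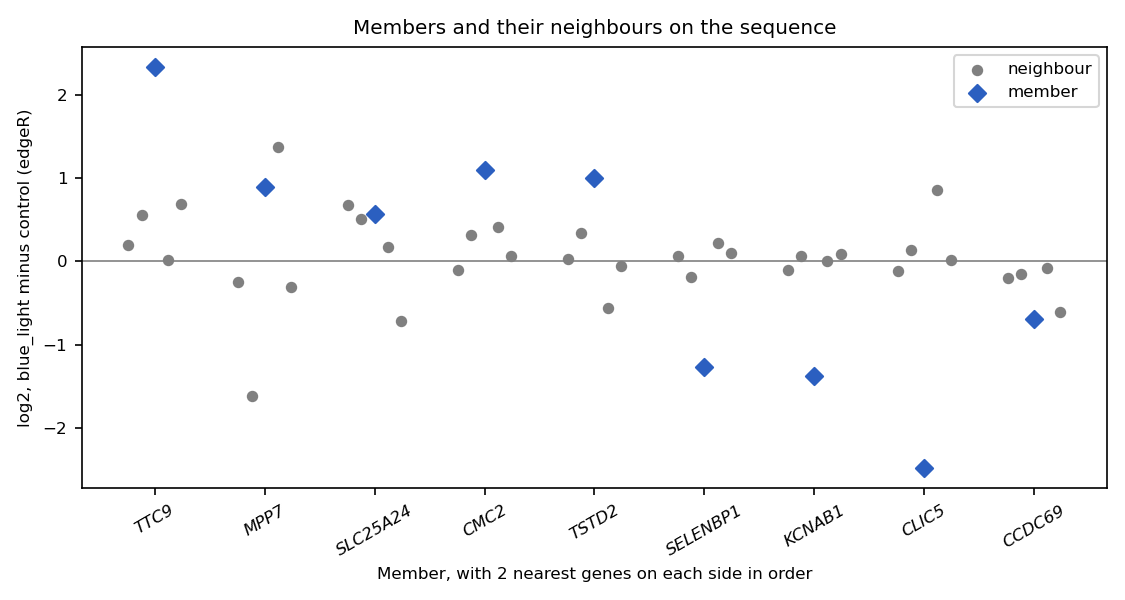
Fitted log2 difference, blue_light minus control (vertical axis), of the 9 genes (diamonds) and of the 2 nearest tested genes on either side (grey points, in sequence order). The points far from 0 beside MPP7 are ARMC4 (0.0793 CPM in blue_light, 0.247 CPM in control) and PRKCQ (0.819 and 0.317 CPM), both rare.

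Genes with the most similar profile were sought among 9970 tested genes with a symbol and a mean of at least 5 CPM, by the root mean square (RMS) distance between log2 CPM values centred over the 12 libraries. CMC2 had the closest counterpart relative to its own variation: SRSF10, a splicing factor, at a distance of 0.169 where CMC2 itself varied by 0.455 about its mean. SRSF10 stood at 186 CPM in blue_light, 113 in GL, 150 in RL and 100 in control. The mitotic kinase CDK1 came next at 0.245. SLC25A24 was followed by the mRNA export factor THOC7 (0.157) and the ribosomal protein gene RPS24 (0.172), MPP7 by L3MBTL3 (0.226) and the ubiquitin ligase TRIM25 (0.249), and TSTD2 by EFR3A (0.238) and ZFP28 (0.239). For CCDC69 they were SUMF2 (0.190) and TRIM8 (0.203), for SELENBP1 ANKRD16 (0.296), and for KCNAB1 TRUB2 (0.388) and PTS (0.404). The nearest to TTC9 was CENPO (0.730, where TTC9 itself varied by 1.32) and to CLIC5 TAGLN (0.673, where CLIC5 varied by 1.09). These are the nearest of 9970 profiles, and the distances describe likeness in these libraries.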

How the data were processed

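The authors deposited, per the file headers, an estimated count and an FPKM value for each gene and library. The counts are whole numbers, so rounding changed none, but low values pile up at steps of about 3.83, so they are not raw reads and detection floors (3 steps) are approximate. All 140000 zero counts carry an FPKM of 0.0001. No source used here gives the aligner or counter. The submitters' processing notes name GRCm38 and mm10, mouse builds, while the table places genes on rabbit RefSeq sequences. Chromosomes follow OryCun2.0 numbering of those sequences, and the build is otherwise unnamed. All 9 identifiers and symbols matched a RefSeq gene table of assembly mOryCun1.1, used for names only.

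From these counts, edgeR 4.0.16 (R 4.3.3) quasi-likelihood tests were run with TMM scaling, filterByExpr and 4 group means over 12 libraries. P-values were Benjamini-Hochberg adjusted over 18171 genes and called below 0.05. Log2 CPM used a prior count of 2. Alternatives used limma 3.58.1 and DESeq2 1.42.0. Intervals reflect sampling and differences among libraries, floors counting alone. The procedure was tested on simulated data.

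The 9 genes and the lists were chosen with earlier results of these data known. Named besides the 9 genes are family members and partners chosen by name (PRC1 and KIF4A among them), the 2 smallest p per list in blue_light minus control, the 2 nearest profiles and neighbours. Of the neighbours only examples are printed. A few genes that these rules name are not reported here.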

Additional observations from a re-analysis of the deposited data

Results flagged for a closer look

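SLC25A24 stood on opposite sides of control in 2 light groups: all 3 blue_light libraries (63.9 to 71.5 CPM) were above every control and all 3 GL libraries (37.2 to 39.4 CPM) below (41.1 to 50.0 CPM in control). The difference of mean log2 CPM, GL minus control, was −0.248. The blue_light side was fixed by how the gene was chosen, and the difference between the groups was not tested. Every GL library lay below every control for 9.25% of genes tested.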

How the results depend on the processing

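In GL minus RL, the count of 13 genes called became 3 with only the 2 groups compared, 2 without the 3 libraries richest in retinal transcripts, 20 by limma on log2(FPKM + 1) and 201 by DESeq2, and 5 to 25 without single libraries (5 without GL 1, 24 without GL 2, 8 without GL 3, 25 without RL 2, 8 without RL 3). Of the 9 genes 0 were called in 23 of 24 alternatives, and 1 (TTC9) by DESeq2. In blue_light minus control, the count of 3 became 7 with only the 2 groups compared, 1 without those 3 libraries, 5 by limma on log2(FPKM + 0.1) and 29 by DESeq2, and 2 to 10 without single libraries (10 without control 1, 5 without GL 2). The lists and neighbours had 0 calls in all 24 alternatives. Some of these fits hold fewer libraries, and otherwise the cause was not tested. With a replicate block, TTC9 had a log2 of 2.30 (adjusted p = 0.127), and no call among the 9 genes changed. Replicate numbers showed no clear pairing of the libraries, though so few libraries cannot exclude one. In deviations from group means, 3 of 18 same-numbered pairs correlated above 0.1, with the highest at 0.235 (RL 1 with control 1). The median correlation was 0.0125 for same-numbered pairs and −0.00275 for the others. A minimum mean of 5 FPKM left out CMC2 and CLIC5. The library set covariate was added with the data known. Signs in GL minus RL turned in 3 of 23 alternatives for CMC2, 1 of 24 for TSTD2 and 2 of 24 for SELENBP1, none of them called. CLIC5, with as few as 53 deposited counts, is limited most by depth. Low counts step by about 3.83, so these may stand for fewer fragments.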

Other observations

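Among the 36 pairs of the 9 genes, the closest profiles over 12 libraries were those of CMC2 and TSTD2, at an RMS distance of 0.244 on the centred log2 CPM scale, followed by SLC25A24 with CMC2 (0.368) and with TSTD2 (0.371). Among the genes lower in blue_light, KCNAB1 and CCDC69 were closest (0.474). All of these pairs share the direction that chose them.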
